A study of Rattus norvegicus with 49 samples.

Results

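The mRNAs of the cytosolic ribosomal proteins were described in thyroid tissue of rats that had received iodine-131 (131I) months earlier. The members were the genes with an Rpl, Rplp or Rps symbol on the array, and there were 80 of them among 15154 genes with a symbol, 49 of the large and 31 of the small ribosomal subunit. The ribosome is built from ribosomal RNA and one copy of most of these proteins, so their genes are usually expressed strongly and together in every dividing and secreting cell. Most of their mRNAs start with an uninterrupted run of pyrimidines, the 5′ terminal oligopyrimidine tract, through which mTOR signalling controls their translation, so that the mRNA level alone does not give the rate at which the protein is made. A few members have other known roles: free Rpl5 and Rpl11 bind Mdm2 and thereby stabilise p53, Rps6 is phosphorylated by S6 kinase, and Rpl3l is a paralog of Rpl3 made mainly in skeletal and heart muscle.

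One-colour Agilent arrays measured thyroid RNA of 49 male Sprague Dawley rats, 1 rat an array. The rats were injected intravenously with 131I at 5 weeks of age (young) or 17 weeks of age (adult), and each exposed group was set against untreated rats of the same age. Young rats received 0.5, 5, 50 or 500 kBq and were examined after 9 months against controls of 10 months of age, and the young 50 kBq groups examined after 3 and 6 months were set against controls of 4 and 7 months. Adult rats received 50 kBq, and their groups at 3, 6 and 9 months were set against controls of 7, 10 and 13 months. There were 4 arrays a group, except 3 each for young 5 kBq, control 7 months and control 13 months. No group carried a transgene or another treatment.

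Levels are given as log2 of the probe's signal minus log2 of the 75th percentile of signals on the same array, so 0 is the brightness of the 75th percentile, and a difference of 1 is a doubling. The arrays held 141 probes for the 80 genes, and the brightest probe of a gene stands for it. All 80 were bright enough to be tested, and 75 were well above background on all 49 arrays. A transcript was called when the limma adjusted p was under 0.01 and the fold change above 1.5.

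On quality and tissue content 3 arrays stood apart from the other 46. Results that rest on them are given with and without them, except where stated. Replicate 2 of young 50 kBq at 3 months had a 75th percentile signal of 61.0 and 43.1% of its spots well above background, against 1333 to 4172 and 70.1% to 82.5% over the 46. Replicate 3 of the same group had a signal of 783 and a thyroglobulin (Tg, the thyroid hormone precursor) level of 0.14, and replicate 2 of control 7 months had a Tg level of -0.69. On the 46 other arrays Tg lay between 6.41 and 7.91, as labelled for thyroid. The mean of 16 tested skeletal muscle markers was 7.50 and 7.22 on the low-Tg arrays, but was also high elsewhere, with a median of 5.96 over all 49 arrays and a range from -2.85 to 7.50. Over the 49 arrays the median of the list mean was 2.19 for parathyroid, 1.76 for adipocyte, 0.31 for smooth muscle and fibroblast, -0.69 for macrophage and -0.77 for C cell markers. Squamous epithelium markers had a median of -5.43 but were high on some arrays of several groups. They reached 1.83 in adult 50 kBq at 3 months, 1.80 in young 50 kBq at 6 months and 1.78 in control 4 months. Whole tissue was measured, so that fewer cells of a type and less RNA per cell cannot be told apart.

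Start-site sequences are shown for members on which the results below turn, and for pairs of related genes, because the pyrimidine run at the start is the feature these mRNAs are known to share. RefSeq start sites on GRCr8 were matched for 65 of the 80 members, and each sequence holds the 15 bases before and the 15 bases from the annotated start, on the transcript's strand, with the longest run of C and T in capitals. The windows are chr10:14251833-14251862 (plus strand) for Rps2, chr7:113507976-113508005 (minus) for Rpl3, chr10:14258431-14258460 (plus) for Rpl3l, chr8:128728864-128728893 (plus) for Rpsa, chrX:71342907-71342936 (minus) for Rps4x, chr14:1995211-1995240 (minus) for Rpl5, chr8:71290858-71290887 (minus) for Rplp1, chr2:221962269-221962298 (minus) for Rpl34, chr5:168117946-168117975 (plus) for Rpl22 and chr2:113683181-113683210 (plus) for Rpl22l1.
Rps2: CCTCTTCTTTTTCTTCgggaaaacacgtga
Rpl3: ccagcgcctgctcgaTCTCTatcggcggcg
Rpl3l: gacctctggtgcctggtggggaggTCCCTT
Rpsa: CCTTTCCgcgctaccctggaacgggtccgt
Rps4x: tccagcgcgcgcagCCTCCgaccctaattt
Rpl5: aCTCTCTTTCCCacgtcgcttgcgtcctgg
Rplp1: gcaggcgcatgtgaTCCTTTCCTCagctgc
Rpl34: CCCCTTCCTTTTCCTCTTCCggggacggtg
Rpl22: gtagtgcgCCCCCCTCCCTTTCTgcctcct
Rpl22l1: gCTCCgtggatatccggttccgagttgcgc

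A run of at least 8 pyrimidines lay in this window in 41 of the 65 members (63.1%), against 11.4% of 33469 RefSeq promoters of rat genes. The letters CTTTC on the transcript's strand were in 26 members (40.0%) and in 3.59% of all promoters, and on either strand in 41.5% and 7.32%; these letters can lie inside a longer run. The longest run had a median of 9 bases in the members and 4 in all promoters. Rps2, Rpl34 and Rplp1 hold long runs, and Rpl22 holds one of 15 bases where its paralog Rpl22l1 has 4. Rpl3 and its paralog Rpl3l both hold short runs, of 5 and 6 bases. A run can lie wholly or mostly before the annotated start, as in the windows of Rpl5, Rpsa and Rps2, and so need not be in the mRNA. Annotated starts can be off by some bases, and such a match is a description of letters, not of a site in use.

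The members' median on an array lay between 5.37 and 6.31, which places the group far above the array's 75th percentile, and between 5.37 and 6.13 on the 46 arrays. The 3 brightest were Rpl41, the shortest of the ribosomal proteins, with a mean level of 7.52, Rplp0 of the ribosomal stalk with 7.12 and Rps12 with 6.88. The 3 dimmest were the copies Rpl27l2 with -8.71, Rps12l4 with -5.37 and Rpl39l1 with -3.94. These values come from different probes and do not rank the transcripts. Most members varied little between rats of one group: 77 of 80 had a pooled SD within groups under 0.5, with a median of 0.27, or 0.20 over the 46 arrays. Over the 49 arrays the smallest SDs were those of Rps27 (0.15), Rps6 (0.16) and Rps4x (0.16), and the largest those of Rpl3l (1.83), Rpl39l1 (1.41) and Rpl27l2 (1.38).

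**Figure D1:**
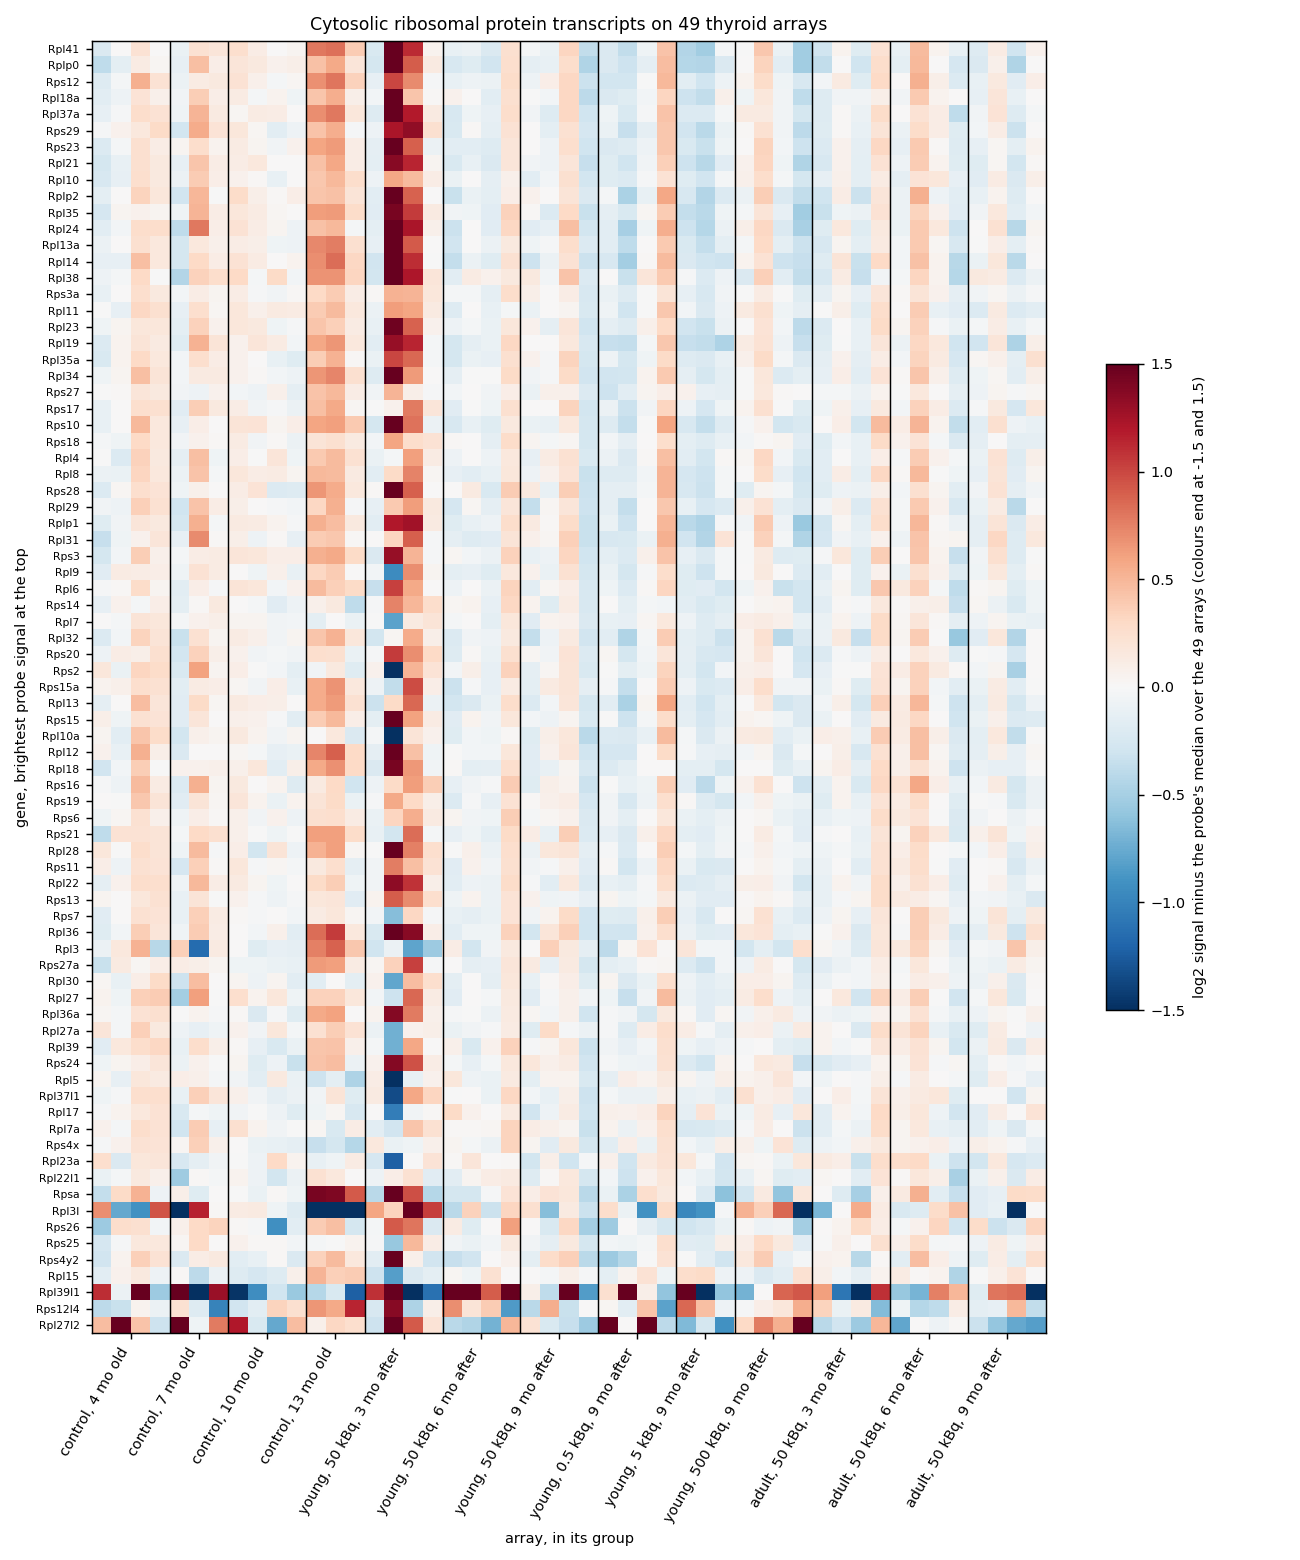
Level of the 79 cytosolic ribosomal protein transcripts with a value on every array (rows) on each of the 49 arrays (columns, ordered by group), as log2 signal minus that transcript's median over the arrays. Colours end at -1.5 and 1.5. Whole columns are shaded alike, and the row of Rpl3l departs furthest. Before its median of 3.97 was subtracted, Rpl3l had a level of -5.95 on 1 array.

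The large and small subunit transcripts moved together from array to array, with a Pearson r of 0.93 between their medians over 49 arrays and 0.91 over 46. The members' median was lower on arrays with a higher 75th percentile signal, with r = -0.71 and Spearman's rho -0.86 over 49 arrays and r = -0.83 and rho -0.83 over 46 (-0.83 and -0.78 for r without the 2 arrays of most distant signal). The median r of a single member with that signal was -0.74 over the 46 arrays. These coefficients are descriptions, since the same 75th percentile is subtracted from every level. With the mean of the muscle markers the members' median had an r of 0.20 over 49 arrays and 0.07 over 46, where 42 members had a negative and 38 a positive r. Among the other genes whose level was most like the members' median over the 49 arrays were Gtf2h4 (r = 0.84), Ceacam9 (0.83), H2az2 (0.82) and Fth1 (0.80), with 0.79, 0.81, 0.75 and 0.83 over the 46.

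**Figure D2:**
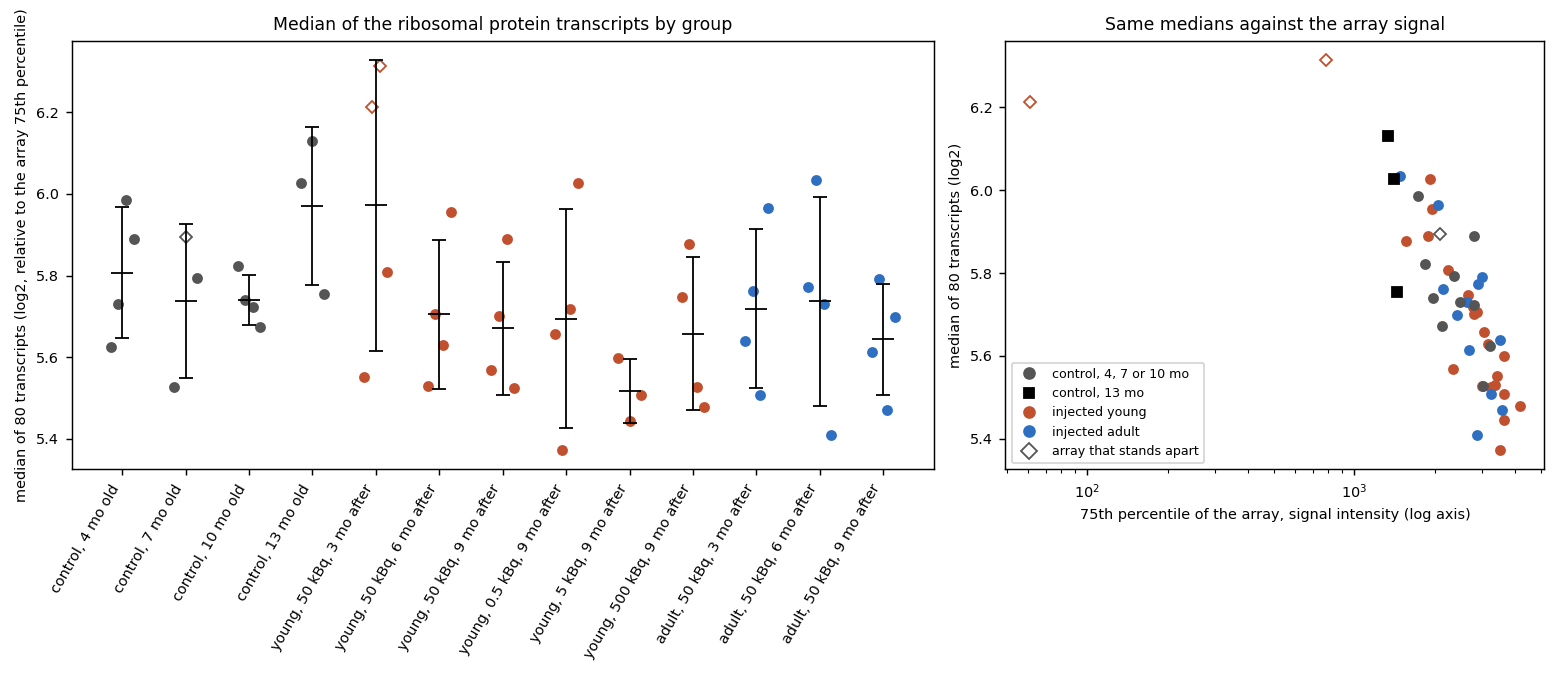
Left: median log2 level of the 80 transcripts on each array, by group, with the mean ± SD of each group. Right: the same medians against the 75th percentile signal of the array on a log axis, with open diamonds for the 3 arrays that stood apart and black squares for control 13 months. Array medians lie between 5.37 and 6.31 and are lower where the signal is higher.

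By group, the members' median was 5.81 ± 0.16 in control 4 months, 5.74 ± 0.19 in control 7 months, 5.74 ± 0.06 in control 10 months and 5.97 ± 0.19 in control 13 months (SD, n = 4, 3, 4 and 3). In young rats examined after 9 months it was 5.69 ± 0.27 after 0.5 kBq, 5.52 ± 0.08 after 5 kBq, 5.67 ± 0.16 after 50 kBq and 5.66 ± 0.19 after 500 kBq. In adult rats after 50 kBq it was 5.72 ± 0.19 at 3 months, 5.74 ± 0.26 at 6 months and 5.64 ± 0.14 at 9 months. The young 50 kBq groups had 5.97 ± 0.36 at 3 months, or 5.68 for the 2 arrays that did not stand apart, and 5.71 ± 0.18 at 6 months. Control 13 months was thus the control group with the highest mean, by less than its SD above control 4 months.

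In young rats examined 9 months after injection, no cytosolic ribosomal protein transcript was called by limma after any of the 4 activities, and in the fit of 49 arrays 0 of 80 had an unadjusted p under 0.05 in these 4 comparisons. Over all 25284 probes tested, the share called was 0%, 0.0119%, 0.0119% and 0%, and the share with an unadjusted p under 0.05 was 0.929%, 1.83%, 1.42% and 1.63%. The median log2 fold change of the members was -0.03 for the lowest activity, -0.17 for 5 kBq, -0.05 for 50 kBq and -0.04 for the highest, against -0.00, -0.02, 0.04 and 0.06 for all probes. At 5 kBq the groups did not overlap for 34 members (42.5%), all lower, against 6.82% of all probes, and for 1, 1 and 0 members at 0.5, 50 and 500 kBq (1.06%, 3.99% and 2.92% of all probes). The 75th percentile signal did not overlap either, at 3629 to 3653 after 5 kBq and 1842 to 2802 in control 10 months, and its part in the shift was not tested beyond the covariate value given next. At 5 kBq 70 of the 80 were lower, but with quantile normalization or with the array's signal as a covariate the median was 0.10 instead. Over 46 arrays 11 members had an unadjusted limma p under 0.05 at 5 kBq (6.59% of all probes), 10 of them lower, with no adjusted p under 0.7. Rpl19, of the large subunit, had levels of 5.99, 5.97 and 5.87 at 5 kBq and of 6.40, 6.52, 6.46 and 6.30 in control 10 months. These did not overlap, at -0.48 ± 0.25 (log2, SE) with a limma adjusted p of 1.00 and an exact permutation p of 0.0286, the smallest that 3 against 4 arrays allow. Rpl19 was named because its groups do not overlap, which by itself brings the permutation p to or near this floor, so it is no separate evidence. Rpl7a at the same activity had 3.92, 3.92 and 3.96 against 4.39, 4.21, 4.10 and 4.15, a difference of -0.28 ± 0.16.

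One member each was without overlap at 0.5 and 50 kBq. Rpl17 at 0.5 kBq had levels of 4.38, 4.37, 4.41 and 4.64 against 4.25, 4.30, 4.22 and 4.12, a difference of 0.23. Rpl11, the Mdm2-binding protein, at 50 kBq had 6.27, 6.38, 6.42 and 6.15 against 6.54, 6.45, 6.50 and 6.50, a difference of -0.19, and was also lower without overlap at 5 kBq, by -0.24. None of these differences passed the limma test after adjustment over all probes.

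In young rats examined 3 months after 50 kBq, no member was called (0.0119% of all probes), and 29 transcripts were higher and 7 lower at an unadjusted p under 0.05 (28.4% and 9.58% of all probes). At an adjusted p under 0.05 (17.9% of all probes) 6 were higher: Rps24, Rpl35, Rplp0, Rpl41, Rps13 and Rpl38. Rplp0, the stalk protein that anchors Rplp1 and Rplp2, had levels of 6.84, 9.00, 8.01 and 7.23, against 6.72, 6.95, 7.22 and 7.13 in control 4 months. The 2 high values belong to the arrays that stood apart, and without these arrays the log2 fold change of Rplp0 went from 0.76 to 0.03 and the members' median from 0.26 to -0.10 (all probes 0.30 with them), with 1 member at an unadjusted p under 0.05 (10.2% of all probes). With quantile normalization of all 49 arrays the median was -0.39.

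At 6 months in young rats and at 3 and 6 months in adult rats after 50 kBq, no member was called or had an unadjusted limma p under 0.05 over 49 arrays. The members' median log2 fold change was -0.07 at 6 months in young rats, -0.07 at 3 months in adult rats and 0.03 at 6 months in adult rats, beside -0.11, -0.11 and 0.06 for all probes, of which 0%, 0% and 0% were called and 6.56%, 4.74% and 0.791% had an unadjusted p under 0.05. Medians this close to 0 changed sign with quantile normalization, to 0.07, 0.11 and -0.02. Control 7 months holds 1 of the arrays that stood apart, and over 46 arrays the first 2 medians were 0.02 and 0.03, with 2 members each at an unadjusted p under 0.05 (10.5% and 8.18% of all probes) and none called. Over the 46 arrays and the 8 exposure comparisons other than adult 50 kBq at 9 months, 76 of the 80 transcripts stayed within 0.5 (log2) of their controls in every comparison. The other 4 were Rpl3l, Rpl39l1, Rpl27l2 and Rpsa.

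**Figure D3:**
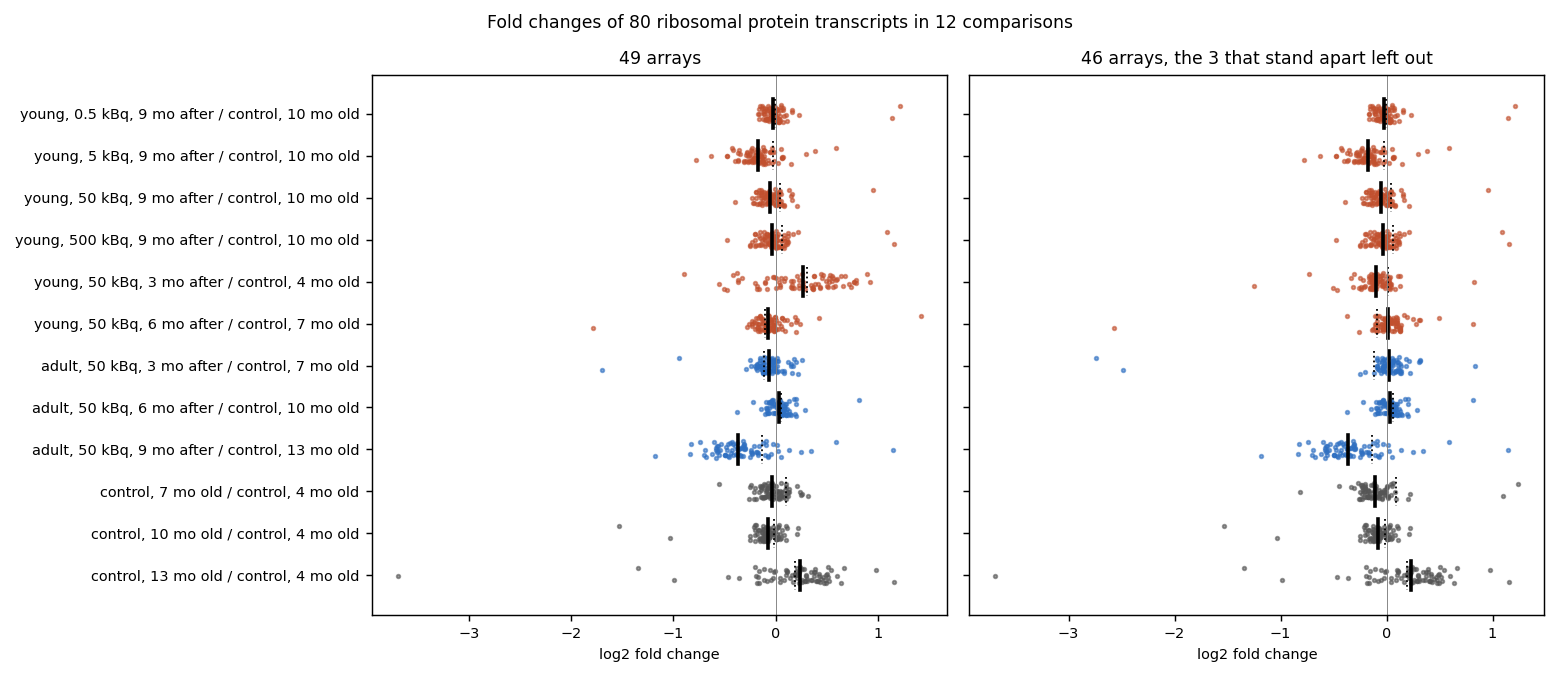
Log2 fold change of each of the 80 transcripts (dots) in the 12 comparisons, fitted with all 49 arrays and with the 46 that did not stand apart. The solid bar is the members' median and the dotted line the median of all probes tested. Most medians lie near 0, that of adult 50 kBq at 9 months is -0.36 and that of control 13 months against control 4 months is 0.24.

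In adult rats examined 9 months after 50 kBq, 72 of the 80 transcripts were lower than in control 13 months, with a median log2 fold change of -0.36 against -0.14 for all probes. By the limma fit of 49 arrays no member was called (0.558% of all probes), 28 were lower and 1 higher at an unadjusted p under 0.05 (11.9% and 10.0% of all probes), and Rpsa passed an adjusted p of 0.05 (4.78% of all probes). The groups did not overlap for 36 transcripts that were lower (45.0%) and 1 that was higher, against 16.4% and 9.77% of all probes. Without the 3 arrays that stood apart, none of which is in these groups, the fitted spread was smaller and 5 members were called, all lower, with 8.99% of all probes called. They were Rpsa, Rpl18, Rpl12, Rpl41 and Rpl36. At an adjusted p under 0.05 32 members were then lower and 1 higher, with 22.3% of all probes past it and 13.3% lower. Both subunits took part, with 20 of 49 large and 12 of 31 small subunit transcripts lower, and medians of -0.38 and -0.32.

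The control 13 months arrays enter this comparison and the one between control ages, so their deviation counts in both. Against control 4 months, 61 of the 80 were higher in control 13 months, with a median of 0.24 against 0.19 for all probes. None was called over 49 arrays (5.15% of all probes), 12 were higher and 2 lower at an unadjusted limma p under 0.05 (20.6% and 13.5% of all probes), and the groups did not overlap for 13 members (16.2%) against 34.3% of all probes. At an adjusted p under 0.05 Rpsa, Rps27a, Rpl15 and Rps12l4 were higher and Rps4x and Rpl3l lower (19.0% of all probes). Over 46 arrays Rpsa, Rpl3 and Rpl41 were called higher (22.0% of all probes), and 22 were higher and 3 lower at an adjusted p under 0.05 (25.9% higher and 39.6% in all). In the control 13 months rats the shift of the ribosomal protein transcripts was thus about that of all probes.

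Signal and tissue content differed between the same groups. The 75th percentile signal was 1333, 1412 and 1441 in control 13 months, 1738 to 3234 in control 4 months and 2426 to 3580 in adult 50 kBq at 9 months. With log2 of this signal as a covariate over the 46 arrays the members' median log2 fold change was 0.03 in place of -0.36 for adult 50 kBq at 9 months and -0.08 in place of 0.24 for control 13 months. The mean of the skeletal muscle markers was 1.85, 1.93 and 3.35 in control 13 months and 4.91 to 6.42 in control 4 months. In adult 50 kBq at 9 months it was 5.92, 6.19, -2.85 and 6.22, on both sides of control 13 months. With the muscle mean as a covariate instead the medians were -0.43 and 0.34, with 11 and 3 members called (7.7% and 5.96% of all probes). The mean of 12 thyrocyte markers was 1.75 to 2.11 in control 13 months, 0.84 to 1.47 in adult 50 kBq at 9 months and -0.31 to 1.72 in control 4 months. Among arrays scanned on one day, the members' median difference was -0.39 for adult 50 kBq at 9 months (2 against 2 arrays, 73 of 80 lower), and 0.29 and 0.27 for control 13 months (2 against 2 and 1 against 2). With the slide as a block the medians were -0.49 and 0.29, and with quantile normalization -0.24 and 0.27. The part of signal and tissue content in these shifts was not tested beyond these values.

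Rpsa, the small subunit protein also known as the laminin receptor, had the largest difference among the called members. Its levels were 4.91, 4.89 and 4.40 in control 13 months, against 3.31, 3.37, 3.77 and 3.76 in adult 50 kBq at 9 months and 3.13, 3.78, 4.00 and 3.40 in control 4 months. The control 13 months rats lay above both other groups without overlap. The log2 difference was -1.18 ± 0.22 for adult 50 kBq (SE, limma adjusted p = 0.00033 over 46 arrays, 0.036 over 49) and 1.16 ± 0.22 for control 13 months against control 4 months (adjusted p = 0.00021 and 0.016), each with an exact permutation p of 0.0286. With the signal as a covariate these were -0.78 (adjusted p = 0.016) and 0.84 (0.0036). A second, separate probe for Rpsa differed by only 0.06 (adjusted p = 0.91) and 0.00 (0.99), so the probes disagree and the transcript's change is uncertain.

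In the fit of 46 arrays Rpl18, a protein of the large subunit, had 5.38, 5.34, 5.34 and 5.46 in adult 50 kBq at 9 months. Control 13 months had 6.04, 6.14 and 5.77 (-0.60 ± 0.13 for adult 50 kBq, limma adjusted p = 0.0015 over 46 arrays and 0.083 over 49). The mean of Rpl18 was 5.475 in control 4 months and 5.511 in control 10 months. Rpl12, which lies at the base of the stalk, had 5.36, 5.59, 5.38 and 5.53 against 6.24, 6.40 and 5.80 (-0.68 ± 0.15, adjusted p = 0.0022 and 0.067). Its mean was 5.647 in control 4 months and 5.443 in control 10 months. Rpl41 had 7.24, 7.56, 7.14 and 7.51 against 8.22, 8.26 and 7.81 (-0.74 ± 0.20, adjusted p = 0.0073 and 0.19), and 7.22, 7.44, 7.65 and 7.44 in control 4 months. In these 3 transcripts control 13 months lay above adult 50 kBq in every rat. With the signal as a covariate the differences were -0.28, -0.31 and -0.10, none called. The second Rpl12 probe gave -0.51 (adjusted p = 0.12 over 49 arrays). Over the members with several tested probes, 51 of 61 other probes had the sign of the brightest one for adult 50 kBq at 9 months, and 45 of 61 for control 13 months.

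Rps4x, the small subunit protein encoded on the X chromosome, went the other way. It had 3.58, 3.66 and 3.50 in control 13 months, against 3.92, 4.00, 4.15 and 4.14 in control 4 months and 4.02, 3.99, 3.91 and 3.81 in adult 50 kBq at 9 months. Control 13 months was lowest in every rat, by -0.47 ± 0.13 against control 4 months (49 arrays, adjusted p = 0.011) and with adult 50 kBq higher by 0.35 ± 0.13 (adjusted p = 0.094). Over 46 arrays the difference between control 13 and 4 months was -0.47 (limma adjusted p = 0.0016) without a covariate and -0.41 (0.021) with the muscle covariate. The signal covariate over the same 46 arrays left both differences, at -0.60 (adjusted p = 0.00025) and 0.51 (0.0037). Rpl15, of the large subunit, had -1.08, -1.22 and -1.21 in control 13 months and -1.74, -1.52, -1.44 and -1.65 in control 4 months (0.42 ± 0.15, adjusted p = 0.045). Its r with the muscle mean was -0.60 over 49 arrays. Over 46 arrays the difference was 0.29 (adjusted p = 0.12) with the muscle covariate and 0.44 (0.011) with the signal covariate.

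**Figure D4:**
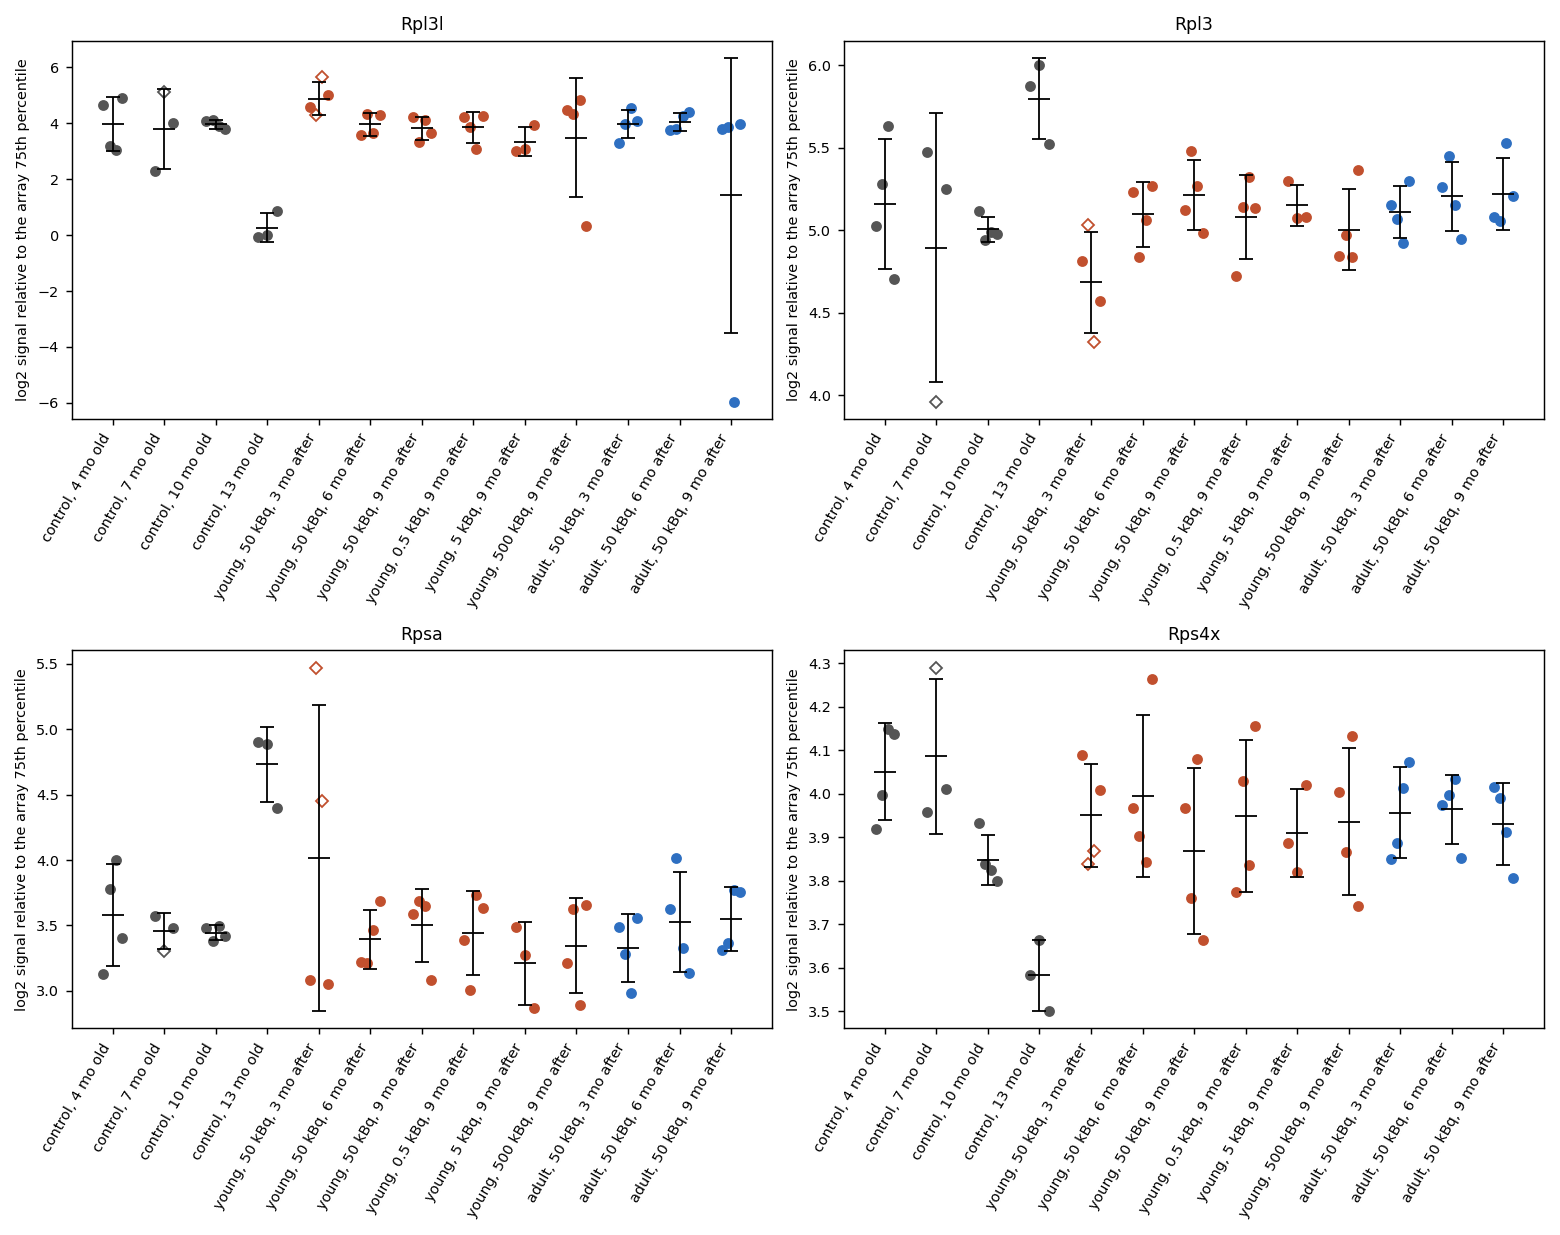
Log2 level of Rpl3l, Rpl3, Rpsa and Rps4x on each array (points) by group, with the mean ± SD. The 3 control 13 months arrays lie between 4.40 and 4.91 for Rpsa and between 3.50 and 3.66 for Rps4x, and Rpl3l falls to -5.95 on 1 array of adult 50 kBq at 9 months.

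Rpl3l, the muscle paralog, varied most of all members, from -5.95 to 5.65 with a median of 3.97. Control 13 months had -0.06, 0.00 and 0.87, against 4.67, 3.20, 3.06 and 4.92 in control 4 months. The groups did not overlap, with a log2 difference of -3.69 ± 1.23 (limma adjusted p = 0.032, exact permutation p = 0.0286). In adult 50 kBq at 9 months 3 rats had 3.80, 3.86 and 3.97 and 1 rat had -5.95. In young 500 kBq 3 rats had 4.49, 4.33 and 4.83 and 1 rat had 0.32. The low rats were those with a low mean of the 16 muscle markers, at -2.85 and 3.10.

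Over the arrays Rpl3l followed the muscle mean with r = 0.98 (rho 0.88 over 49 arrays and 0.87 over 46, and r = 0.94 without the 2 arrays of most distant muscle mean). With the muscle mean as a covariate the difference between control 13 and 4 months was -0.06 (adjusted p = 0.915, 46 arrays). Rpl3, the form found in most tissues, had an r of -0.63 with the muscle mean and of -0.64 with Rpl3l. Its levels were 5.87, 6.00 and 5.52 in control 13 months and 5.02, 5.28, 5.63 and 4.70 in control 4 months, a difference of 0.64 ± 0.18 (adjusted p = 0.0047 over 46 arrays and 0.051 over 49) that was 0.40 (adjusted p = 0.11) with the muscle covariate. With the signal covariate this difference was 0.55 (adjusted p = 0.025, 46 arrays). In control 7 months the low-Tg array had 3.96, against 5.47 and 5.25. Rps2 lies 4749 bases from Rpl3l on chromosome 10, with Rps2 at chr10:14251841-14253697 and Rpl3l at chr10:14258446-14268989 (GRCr8), and Rps2 had an SD of 0.31 where Rpl3l had 1.83. With the muscle mean Rps2 had an r of 0.55 over 46 arrays, in the same direction as Rpl3l. The window of Rps2 holds the long pyrimidine run printed above, mostly before the annotated start, and that of Rpl3l does not.

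**Figure D5:**
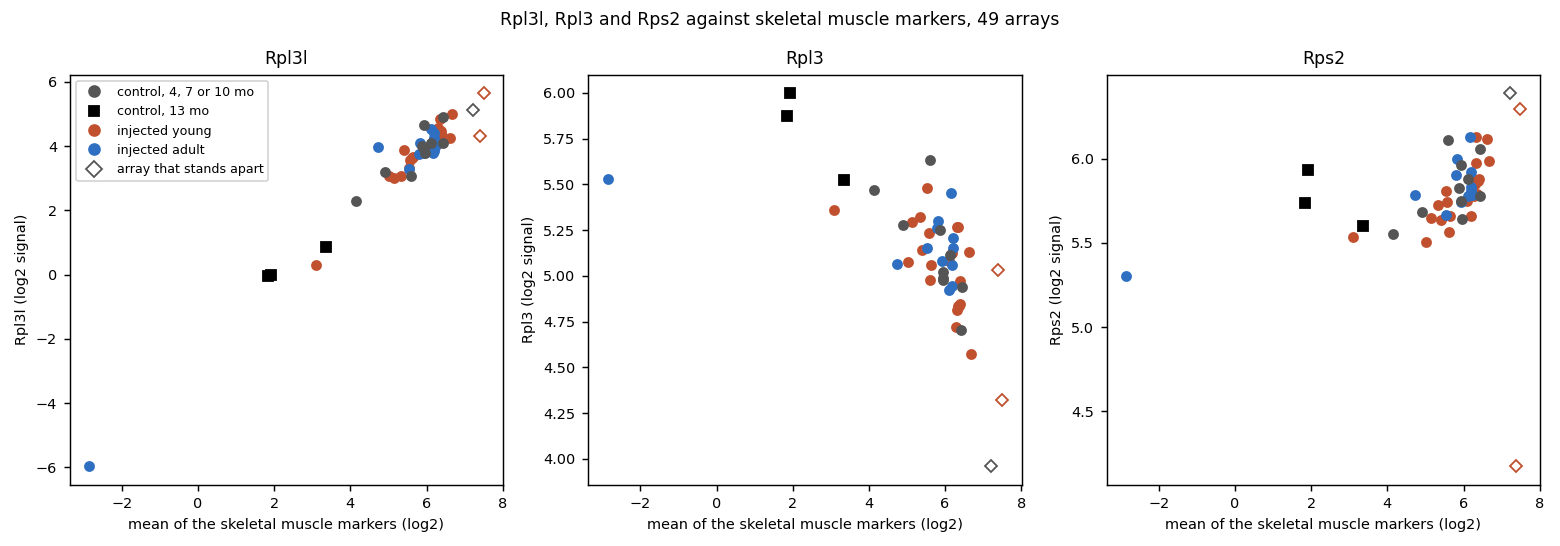
Log2 level of Rpl3l, Rpl3 and Rps2 on each of the 49 arrays against the mean log2 level of 16 skeletal muscle markers on the same array. Rpl3l rises with the markers (r = 0.98) and Rpl3 is lower where they are higher (r = -0.63).

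None of the other related pairs held a member called over 46 arrays without a covariate. Rpl22 and Rpl22l1 had log2 differences of -0.23 and -0.16 for adult 50 kBq at 9 months and of 0.09 and 0.11 for control 13 months, with no adjusted p under 0.57 over 49 arrays. Rps4y2, the copy on chromosome 4, had -0.32 and 0.24, where Rps4x had 0.35 and -0.47. Rpl39, at the exit of the nascent chain, had -0.32 and 0.17. Its copy Rpl39l1 ranged from -7.75 to -1.37 over the 49 arrays with an SD within groups of 1.45, was not well above background on 4 arrays, and differed by -1.35 ± 1.08 (adjusted p = 0.39) between control 13 and 4 months. Rps12l4 had -4.75, -4.85 and -4.27 in control 13 months and -5.80, -5.74, -5.36 and -5.50 in control 4 months (0.98 ± 0.35, adjusted p = 0.047), and Rps12 differed by 0.48 (adjusted p = 0.12). Over 46 arrays the difference of Rps12l4 was 0.98 (adjusted p = 0.014) without a covariate. It was 0.60 (0.20) with the muscle covariate and 1.51 (0.00037) with the signal covariate. Rpl27l2 was well above background on 5 arrays only, namely replicates 1 and 3 of young 0.5 kBq, replicate 4 of young 500 kBq, replicate 2 of control 4 months and replicate 1 of control 7 months, at -6.67, -5.90, -5.44, -4.87 and -5.27. Such copies resemble their parent genes closely, so that their probes may bind the parent's mRNA.

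Among members known for roles outside the ribosome, Rpl5 and Rpl11 went opposite ways in adult 50 kBq at 9 months, with Rpl5 at 4.62, 4.90, 4.79 and 4.69 against 4.50, 4.66 and 4.35 in control 13 months (0.25, adjusted p = 0.074 over 46 arrays) and Rpl11 at 6.16, 6.51, 6.17 and 6.21 against 6.75, 6.85 and 6.53 (-0.45, adjusted p = 0.021). Rpl5 was lower in control 13 than in control 4 months, where it had 4.85, 4.68, 4.98 and 4.94 (-0.36, adjusted p = 0.0059 over 46 arrays and 0.31 over 49). In the 8 other exposure comparisons over 46 arrays Rpl5 lay between -0.04 and 0.11, Rpl11 between -0.24 and 0.09 and Rps6 between -0.12 and 0.09. Rps6 had a log2 difference of -0.24 (adjusted p = 0.12, 46 arrays) for adult 50 kBq at 9 months.

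Rps3, which also takes part in DNA repair, had -0.47 (adjusted p = 0.041, 46 arrays) and Rps19, whose human gene is mutated in Diamond-Blackfan anaemia, -0.22 (0.25). Rps27a, made as a fusion with ubiquitin, had -0.46 (0.0087), short of a 1.5-fold change. The stalk proteins Rplp0, Rplp1 and Rplp2 had -0.54, -0.39 and -0.41 (adjusted p = 0.050, 0.14 and 0.11). Rpl9 had -0.25 (0.18). Of these, Rps27a passed the adjusted p of 0.01 but not the fold cut-off.

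Genes around the ribosome were counted from fixed lists in the fit of 46 arrays. For adult 50 kBq at 9 months, 7 mitochondrial ribosomal proteins were called higher and 1 lower of 66 tested, with a median of 0.23 where the cytosolic ones had -0.36 and all probes -0.13. Mrpl3 (1.31, adjusted p = 0.00029), Mrps9 (1.10) and Mrps22 (1.07) were among those higher than in control 13 months. For control 13 against control 4 months 1 was called higher and 14 lower, with a median of -0.32, and these comparisons share control 13 months. Ribosome biogenesis genes were called higher in 1 and lower in 8 of 46 for adult 50 kBq, with a median of -0.25, and higher in 3 and lower in 2 for control 13 months. Gtpbp4, a GTPase of large subunit assembly, had -1.24 (adjusted p = 2.3e-06) and 1.10, and Ncl, nucleolin, -0.42 and 0.46, under the fold cut-off.

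Of the RNA polymerase I genes 2 of 11 were called lower, among them Ubtf, the ribosomal DNA transcription factor, at -0.88 (adjusted p = 2.3e-05). Initiation factors were called higher in 6 and lower in 1 of 32 for adult 50 kBq and higher in 1 and lower in 7 for control 13 months, with Eif3e at 1.13 and -1.36. None of 8 elongation factors, 15 mTOR signalling genes or 9 other mRNAs with pyrimidine starts was called for adult 50 kBq, and 1 of 8 genes of the ribosome and p53 checkpoint was lower. Over 49 arrays none of these lists had a called gene for adult 50 kBq, and 3 of the mitochondrial list were higher at an adjusted p under 0.05. These counts stand beside 8.99% of all probes called for adult 50 kBq and 22.0% for control 13 months, and no list was tested against the rest.

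The effect of 50 kBq at the same time after injection was compared between rats injected young and adult by an interaction term. No member was called at 3, 6 or 9 months, nor was any probe (0%), and 22, 0 and 6 members had an unadjusted limma p under 0.05 (29.6%, 3.94% and 13.4% of all probes). At 9 months the members' median difference of effects, young minus adult, was 0.32, and the smallest adjusted p was 0.249 for Rpsa. Over 46 arrays Rpsa (1.24, adjusted p = 0.010), Rpl3 (0.79, 0.035), Rpl12 (0.68, 0.038) and Rps27a (0.52, 0.049) passed an adjusted p of 0.05, as did 9.1% of all probes. The same control 13 months arrays enter this contrast, so it is no separate evidence. Between control ages, no member was called at 7 or 10 months against 4 months (0.00396% and 0.0119% of all probes), 0 had an unadjusted limma p under 0.05 (7.63% and 3.64% of all probes) and the members' medians were -0.03 and -0.08. For control 7 months over 46 arrays the median was -0.11, and Rpl27 (-0.45) and Rpl7a (-0.34) had an unadjusted p under 0.05 (13.6% of all probes), with adjusted p of 0.30 and 0.31.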

How the data were processed

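Per the labels, thyroid RNA was hybridised to one-colour Agilent rat arrays. The authors deposited scanner output with background-subtracted signal intensity (gProcessedSignal) and 0 or 1 marks (other values) for spots well above background, saturated or outlying. The submitters' notes name Partek. A deposited table of the authors' own fold changes was not used. No spot was saturated. Probes were named by accession through RefSeq tables of the GRCr8 assembly, and 17998 of 30367 probes matched a symbol.

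Signals were scaled by each array's 75th percentile after control and outlier spots were left out, spots of a probe were averaged and log2 was taken of the deposited intensity values. One limma 3.58.1 fit (R 4.3.3) held 1 mean for each of 13 groups over 25284 probes well above background on at least 3 arrays, with Benjamini-Hochberg adjustment over all of them. The cut-offs were those the methods name, an adjusted p of 0.01 and a fold of 1.5. The fitted prior degrees of freedom were 2.22. Exact two-sided permutation tests can reach 0.0286 for 4 against 4 or 3 against 4 arrays and 0.1 for 3 against 3. Groups that do not overlap give a permutation p at or near this floor. For members named for lack of overlap, such as Rpl19, Rpsa and Rpl3l, it is therefore no separate evidence. The scripts were tested on simulated data.

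The members and lists were chosen with earlier results of these data known. Members named were the 3 brightest and 3 dimmest, the 3 most and 3 least variable, paralog pairs, members with known roles, called members, and for each comparison those with the lowest limma p in each direction whose groups do not overlap. Members named at a looser threshold (such as Rps24 or Rps12l4), Rps2, Rpl34 and the genes named from the pathway lists were chosen after their values were seen. Alternatives were quantile normalization, normexp with an offset of 50 on median signals (mean signals were not used here), no dim-probe filter or a stricter one, array weights, slide, scan date and replicate number as blocks, other probes, leaving out each array, and, chosen after seeing the data, the 46 arrays and covariates. The number of arrays limits the precision. Numbers were taken as pairing arrays where every same-numbered pair correlated above 0.1. This held only in young 50 kBq at 6 months against control 7 months (r of 0.33, 0.32 and 0.14), since control 10 against 4 months had 3 such pairs of 4 (0.40, 0.43, 0.17 and -0.08), and nothing in the labels says that a number marks a shared batch. A few items are not reported here.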

Additional observations from a re-analysis of the deposited data

Results flagged for a closer look

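Values of named members and of the members' median were tested for a single distant rat. Of 100 such groups of 4 values 7 held one, and chance alone flags about 1 in 20. In 2 the distant value was that of Rpl3l. Replicate 3 of adult 50 kBq at 9 months had -5.95 against 3.80 to 3.97 in the other 3 rats, and its mean of the skeletal muscle markers was -2.85 against 5.92 to 6.22. Replicate 4 of young 500 kBq had 0.32 against 4.33 to 4.83, with a muscle mean of 3.10.

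In the other 5 the gaps were smaller. Rpl39l1 was -3.09 in replicate 3 of young 50 kBq at 6 months, against -2.25 to -2.09 in the others. Rpl12 was 5.67 in replicate 4 of the same group, against 5.46 to 5.49. Rpsa was 3.08 in replicate 4 of young 50 kBq at 9 months, against 3.59 to 3.68. Rps27 was 6.31 in replicate 2 of young 500 kBq, against 6.14 to 6.16. Rpl15 was -1.51 in replicate 4 of control 10 months, against -1.83 to -1.78.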

How the results depend on the processing

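Of the recomputed counts and medians, 610 stayed within the spread between arrays or within 1.5 times of those reported and 32 moved. Counts of 0 that stayed 0 are among the 610. Of the settings other than leaving out an array, 6 moved the count of called members for adult 50 kBq at 9 months and 8 that for control 13 months. For adult 50 kBq at 9 months the members called went from 0 to 5 over 46 arrays (8.99%), 11 with the muscle covariate (7.7%) and 21 with array weights (31.1% of all probes called). They were 1 each with the signal covariate (10.3%), at an adjusted p of 0.05 (4.78%) and with the slide as a block. The share of all probes for the slide block is not given, so that count is not read further. The median became 0.026 with the signal covariate. For control 13 months the members called went from 0 to 3 over 46 arrays (22.0%), 3 with the muscle covariate (5.96%), 4 with the signal covariate (26.5%) and 17 with array weights (35.7%). They were 6 at an adjusted p of 0.05 (19.0%), and 1 each with quantile normalization, normexp and the slide as a block. Shares of all probes for these last settings are not given, so their counts are not read further. The median became -0.078 with the signal covariate. For young 50 kBq at 3 months 6 passed an adjusted p of 0.05 (17.9%). The median became -0.10 over 46 arrays, -0.045 with the signal covariate, -0.13 with the muscle covariate over 46, -0.39 with quantile normalization and -0.011 with array weights. For young 5 kBq the median was 0.10 with quantile normalization and 0.10 with the signal covariate. The other exposure medians lay between -0.02 and 0.11 with quantile normalization or the signal covariate, with sign changes near 0. Array weights called 1 member for young 50 kBq at 6 months (1.27% of all probes) and 11 in the 9 month interaction (23.6%). Beyond the arrays left out, the cause of these moves was not tested.

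Leaving out each array in turn gave 0 to 21 called members for young 50 kBq at 3 months (21 without its replicate 1 and 9 without its replicate 4, beside 16.9% and 14.9% of all probes, with medians of 0.15 to 0.45), 0 to 3 for adult 50 kBq at 9 months (3 without young 50 kBq 3 months replicate 2 and 1 without adult replicate 3, beside 4.47% and 3.56%, medians -0.49 to -0.28), 0 to 1 for control 13 months (1 without young 50 kBq 3 months replicate 2 or control 4 months replicate 3, beside 16.0% and 8.25%, medians 0.16 to 0.37), and 0 in every other comparison. Without its replicate 1 or 4, young 50 kBq at 3 months still held its replicates 2 and 3, which stood apart. With the replicate number as a block 0 members were called in all comparisons and the adult 9 month median was -0.36, so the block changed no call. Same-numbered arrays correlated between -0.52 and 0.50 outside young 50 kBq at 6 months, and so share only a number there. Scan day as a block gave medians of -0.46 and 0.26 for adult 50 kBq at 9 months and control 13 months. Members near background, such as Rpl27l2, are limited by signal.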
